A study of Mus musculus with 10 samples.

Results

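The homeostatic microglia genes are 10 known markers of microglia at rest, *P2ry12*, *P2ry13*, *Tmem119*, *Cx3cr1*, *Csf1r*, *Sall1*, *Siglech*, *Gpr34*, *Fcrls* and *Olfml3*. They were taken by symbol from the deposited table of the spinal cord RNA-sequencing, and all 10 were found among its 25232 genes. The table rests on 10 libraries from female mice at 90 days of age, with the strain given as C57BL/6 in the labels and as C57BL/6J in the methods, 5 of WT mice and 5 of SOD1 G93A mice, which carry many copies of a human *SOD1* transgene with a mutation found in familial ALS. According to the methods, the WT mice were littermates and the tissue was lumbar, whereas the labels give no region of the cord. Levels are given as the base mean, for which the authors divided the read counts of each library by its size factor and averaged all 10 libraries. It pools both genotypes, so the values below describe the tissue of WT and SOD1 G93A mice together, and differences between the genotypes were not analysed here. No spread between mice goes with a base mean, and whether neighbours in an order of levels differ beyond that spread was not tested.

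Microglia are the resident macrophages of the spinal cord. In healthy tissue they survey their surroundings with motile processes and keep a set of receptors that sense nucleotides, lipids and factors of neurons and other glia. These genes are known for losing expression when microglia turn towards a reactive state, and signalling by TGF-beta and by the receptor of colony stimulating factor maintains the resting cells. Some of the markers are shared with other cells, since border macrophages and monocytes also express *Csf1r* and *Cx3cr1*, and plasmacytoid dendritic cells express *Siglech*.

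*P2ry12* and *P2ry13*, which encode receptors for ADP, are neighbours, and the bases before their start sites are shown because the pair lies in a single cluster of related receptor genes on chromosome 3. Both stretches are the 150 bases before the RefSeq start site in GRCm38.p6, on the minus strand and written 5′ to 3′, and capitals mark GAGGAA, the core of sites bound by PU.1, the factor that directs myeloid genes.
P2ry12 (chr3:59262986-59263135): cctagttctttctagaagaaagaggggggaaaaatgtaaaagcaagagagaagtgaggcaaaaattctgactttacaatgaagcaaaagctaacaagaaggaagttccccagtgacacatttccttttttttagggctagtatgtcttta
P2ry13 (chr3:59210883-59211032): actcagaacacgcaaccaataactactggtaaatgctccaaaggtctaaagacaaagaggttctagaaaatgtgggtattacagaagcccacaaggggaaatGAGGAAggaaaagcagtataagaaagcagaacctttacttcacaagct
GAGGAA is found in the stretch of *P2ry13*, with its first base at position -48 from the start site, and these letters are not in the stretch of *P2ry12*. Forms of a PU.1 site without these exact letters were not searched for, so the stretch of *P2ry12* may hold another form. The RefSeq start of *P2ry12* lies 114 bases upstream of the gene's start in GENCODE, outside the annotated transcripts there, whereas both annotations give the same start for *P2ry13*. A promoter sequence was matched for 7 of the 10 genes (*P2ry12*, *P2ry13*, *Cx3cr1*, *Sall1*, *Siglech*, *Fcrls* and *Olfml3*). Within 250 bases before and 50 bases after the start site, searched on both strands, GAGGAA was found for 3 of these 7, *P2ry13*, *Fcrls* and *Siglech*. Counted by promoter, with 3 start sites for *Sall1*, these letters were in 3 of the 9 promoters of the 7 genes. They were in 28.3% of all 32851 promoters of the reference. The longer PU.1 site GAGGAAGT, which contains GAGGAA, was found for 0 of the 7 and in 3.20% of all promoters. The SMAD-binding letters GTCTAGAC were found for 0 of the 7 and in 0.213% of all promoters. TATAAA, the letters of a TATA box, was found for *Fcrls* alone, at position -217, and in 13.6% of all promoters. The number of CpG sites in these 300 bases was between 2, for *Siglech*, and 8, for *Olfml3*, in 6 of the 7 genes. *Sall1* differed, with 18, 27 and 39 CpG sites at its 3 start sites, where the median over all promoters was 7.

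All 10 genes were detected in the spinal cord, with base means from 227 to 3041 in the deposited table. *Csf1r*, the receptor of colony stimulating factor 1 and interleukin 34, on which microglia depend for survival, had the highest base mean, 3041. *Sall1*, a zinc finger transcription factor that maintains microglial identity, followed with 1333, and *Cx3cr1*, the receptor of the neuronal chemokine fractalkine, with 1278. These 3 genes together made up 65.2% of the summed base mean of the 10. *Olfml3*, which encodes a secreted glycoprotein with an olfactomedin domain, had a base mean of 672, and *P2ry12* one of 583. *Fcrls*, an Fc receptor-like scavenger receptor, was at 533 and *Tmem119*, a membrane protein used to tell microglia from blood-derived macrophages, at 480. The lowest base means were those of *Siglech* (284), a sialic acid-binding lectin that pairs with the adaptor encoded by *Tyrobp*, of *P2ry13* (233) and of *Gpr34* (227), a receptor for lysophosphatidylserine. *P2ry13* and *Gpr34* differed by a ratio of 1.03, the smallest between neighbours in this order, and *Csf1r* and *Sall1* by 2.28, the largest.

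Against all genes detected in the tissue, these are genes of middle to high abundance. Among the 20973 genes with a base mean above 0, *Csf1r* was number 1584 from the top, at percentile 92.4. *Sall1* lay at percentile 80.3 and *Cx3cr1* at 79.5, while *Gpr34* at 48.9 and *P2ry13* at 49.3 were the only members below the median gene. The median of the 10 base means was 558, which is 2.26 times the median of 247 over all genes above 0. When genes with a base mean under 10 were left out of the ranking, 6 of the 10 lay above the median gene in place of 8. *Gpr34* then lay at percentile 32.6, *P2ry13* at 33.1 and *Siglech* at 36.8. Summed, the 10 genes took 391 of each 1000000 normalized counts of the table. In bulk tissue, fewer cells of a type and less RNA per cell cannot be told apart, so these levels do not give the number of microglia.

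A long gene collects more reads than a short gene at the same number of transcripts, and levels between genes were therefore compared as base mean per kilobase of coding sequence. On this scale the range narrowed from 13.4-fold to 5.98-fold, and the order changed. *Cx3cr1* was highest at 1204 per kilobase and *Csf1r* followed at 1038. *Tmem119* (571), *P2ry12* (560) and *Olfml3* (552) formed a middle group, in which neighbours differed by ratios of 1.02. *Sall1*, with the longest coding sequence of the 10 (3969 bases) and the second highest base mean, was number 7 at 336 per kilobase, next to *Fcrls* at 349. *Siglech* (285), *P2ry13* (230) and *Gpr34* (201) were the lowest on both scales. The median of the 10 was 450 per kilobase, against 254 over the 17714 genes above 0 that had a coding length. With the length of all annotated exons in place of the coding sequence, *Csf1r* was again the highest, 2.19 times *Cx3cr1*, and *Siglech* was the lowest. *Sall1* was number 3 on that scale and *Tmem119* number 6, so the low place of *Sall1* held for the coding length only. *Olfml3* was number 7 with the length of all exons, and its annotated exons are 4.49 times as long as its coding sequence.

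**Figure D1:**
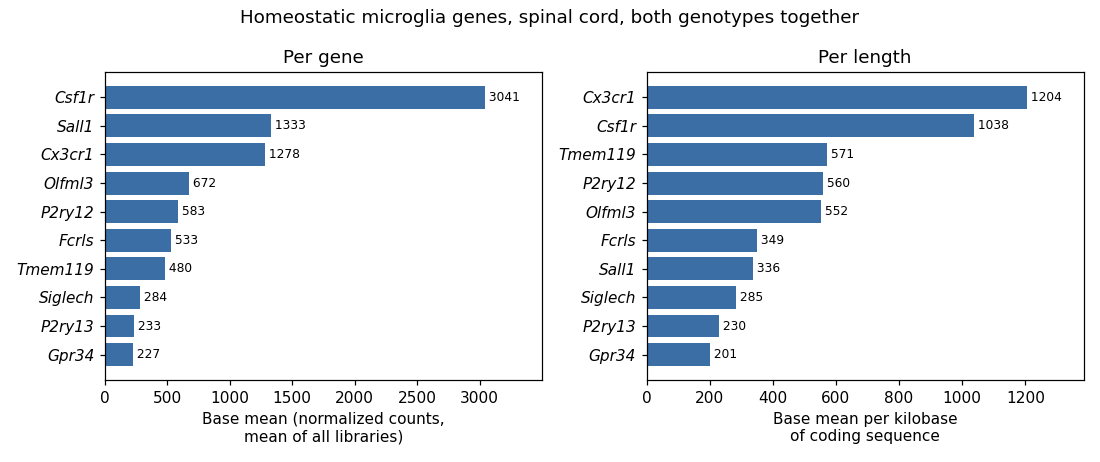
Base mean (normalized counts, mean of all 10 libraries of both genotypes, left) and base mean per kilobase of coding sequence (right) of the 10 homeostatic microglia genes, each panel sorted from high to low, with the value beside each bar and no error because the table gives none for a level. *Csf1r* leads on the left (3041) and *Cx3cr1* on the right (1204), and *Sall1* is the second on the left and number 7 on the right. With the length of all exons, which is not drawn, *Csf1r* leads and *Sall1* is number 3.

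The genes for surface receptors were set beside the genes of their ligands and signal partners, per kilobase of coding sequence. *Cx3cl1*, which encodes fractalkine and is made mostly by neurons, stood at 4745 per kilobase, 3.94 times its receptor gene *Cx3cr1*. The receptor gene *Csf1r* stood at 1.09 times its ligand gene *Csf1* (954) and at 1.84 times its other ligand gene *Il34* (563). With the length of all exons these ratios were 1.86 and 2.86. *Entpd1*, which encodes the enzyme that removes phosphates from extracellular ATP and ADP, was at 209, and *P2ry12* was 2.68 times as high. *Kcnk13*, which encodes a potassium channel, was at 587, within a ratio of 1.05 of *P2ry12*. With the length of all exons the order turned, *P2ry12* being 1.04 times *Kcnk13*. *Tyrobp*, which encodes a signal adaptor of many myeloid receptors, stood at 1291, which was 4.53 times *Siglech*, and 9.07 times with the length of all exons.

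**Figure D2:**
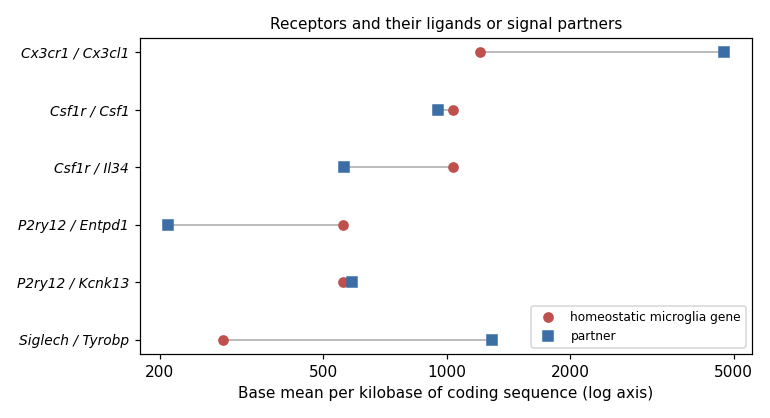
Base mean per kilobase of coding sequence (log axis) of a homeostatic microglia gene (red circle) and of the gene of its ligand or signal partner (blue square), 1 pair per row, from the mean of all 10 libraries. *Cx3cl1* (4745) and *Tyrobp* (1291) lie above their receptor genes, *Csf1* (954), *Il34* (563) and *Entpd1* (209) lie below theirs, and *Kcnk13* (587) lies close to *P2ry12* (560).

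Genes of the TGF-beta pathway, which maintains the resting state, were all detected. Among the ligand genes, *Tgfb3* had a base mean of 646, *Tgfb2* of 374 and *Tgfb1* of 141. The receptor genes *Tgfbr1* and *Tgfbr2* stood at 949 and 694, and *Itgav* and *Itgb8*, whose integrin activates latent TGF-beta, at 2497 and 1332. *Nrros*, the microglial protein that presents latent TGF-beta, had a base mean of 133, the lowest of the 19 ligand and partner genes. The median base mean over these 19 genes was 694, against 558 for the 10 homeostatic genes. Per kilobase of coding sequence the medians were 579 and 450. With the length of all exons the order turned, with 159 for the 19 genes and 224 for the homeostatic genes. Of the 7 other transcription factors of microglia, *Mef2a*, which many other cells express, was highest at 1343 per kilobase and *Runx1* lowest at 37.1. *Sall1* stood at 3.29 times *Spi1*, the gene of PU.1 (102 per kilobase), and at 2.28 times *Irf8* (147), and the ratios were 6.17 and 4.64 with the length of all exons.

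Of 7 groups of related genes, each holding at least 1 homeostatic gene, 5 had a homeostatic gene as the highest per kilobase, with either length. *Cx3cr1* was 158 times the chemokine receptor gene *Ccr2* per kilobase, a marker of blood monocytes with a base mean of 8.55. *Csf1r* was 2.53 times *Pdgfra*, the next highest of the related receptor tyrosine kinase genes, which marks oligodendrocyte precursors. With the length of all exons it was 4.08 times *Pdgfra* and 2.98 times *Flt3*, which then came next. *Siglech* was 2.40 times *Cd33*, or 3.66 times with the length of all exons, and *Fcrls* was 14.6 times *Fcrlb*, the next of the Fc receptor-like genes. *P2ry12* was 1.53 times *P2ry1* and 9.86 times *P2ry14*, a relative from the same cluster, whereas *P2ry13* and *Gpr34* lay below *P2ry1*. With the length of all exons *P2ry12* was 2.51 times *P2ry1*, and the order of *Gpr34* and *P2ry1* turned, *Gpr34* being 1.14 times as high. Of the 32 relatives, 24 lay below *Gpr34*, the lowest of the homeostatic genes per kilobase of coding sequence. Among all 17714 genes above 0 with a coding length, 45.7% lay below *Gpr34*. The groups not led by a homeostatic gene were those of *Sall1*, below *Sall2* at 918 per kilobase, and of *Olfml3*, below *Olfml1* (799) and the neuronal gene *Olfm1* (3046).

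**Figure D3:**
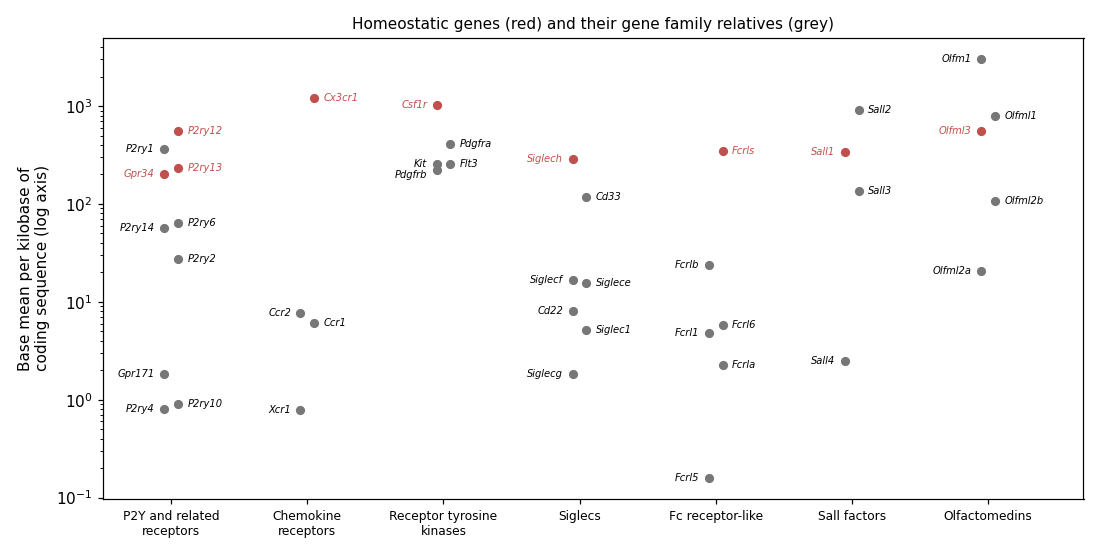
Base mean per kilobase of coding sequence (log axis, mean of all 10 libraries) of the homeostatic microglia genes (red) and their relatives (grey), by gene family; *Tmem119* has no relative listed and is left out. *Cx3cr1*, *Csf1r*, *Siglech*, *Fcrls* and *P2ry12* are the highest of their groups, and *Sall1* and *Olfml3* are not.

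The cluster with *P2ry12* and *P2ry13* showed levels that differ between neighbours. In GRCm38, *P2ry13* spans 59207892 to 59210882 of chromosome 3 and *P2ry12* spans 59216272 to 59262871, with 5389 bases between them. Both lie within *Med12l*, on the opposite strand, together with *Gpr171* and *P2ry14*. From low to high coordinates the base means were 1.75 for *Gpr171*, 59.1 for *P2ry14*, 233 for *P2ry13* and 583 for *P2ry12*. The surrounding gene *Med12l* had a base mean of 1539, and its exons overlapped those of *P2ry12* and *P2ry13* by 0 bases. *Gpr34*, on the X chromosome from 13632089 to 13640858, lies likewise inside *Cask* on the opposite strand, with 0 bases of shared exon.

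*Csf1r*, on chromosome 18 from 61100598 to 61132149, shared 873 bases of exon, 17.9% of its exonic length, with *Hmgxb3* (base mean 1064) on the opposite strand. The kit named in the methods keeps the strand, but the strand setting of the counting is not given in the sources used here, and the part of shared reads in the value of *Csf1r* was not tested. *Cx3cr1*, on chromosome 9 from 119901616 to 120069879, shared 78 bases of exon with an antisense gene on the opposite strand. A single long transcript carries its annotation past several other genes, with which it shared 0 bases of exon. The other 5 genes overlapped no annotated gene. They are *Tmem119* on chromosome 5 from 113793729 to 113800516, *Sall1* on chromosome 8 from 89027235 to 89044162, *Siglech* on chromosome 7 from 55768178 to 55778925, and *Fcrls* and *Olfml3* on chromosome 3 from 87250758 to 87263738 and from 103722222 to 103738001.

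The other markers in the table describe the tissue in which these levels were measured. The 10 genes shared by microglia and macrophages were all above 0, from *Aif1* (base mean 111) to *Ctss* (2521), with a median of 880 per kilobase against 450 for the homeostatic genes. *Aif1*, the gene of the protein IBA1, stood at 251 per kilobase, and *Tmem119* was 2.28 times as high. Of all 17714 genes above 0 with a coding length, 45.7% lay below *Gpr34*, the lowest homeostatic gene per kilobase. The 9 markers of border macrophages had a median of 17.6 per kilobase, and each of the 9 lay below the lowest homeostatic gene on this scale. Their base means ran from 4.81 for *Ms4a7* to 495 for *Stab1*, which endothelial cells also express. The 7 markers of monocytes, neutrophils and lymphocytes had a median of 13.4 per kilobase, and 7 of 7 lay below the lowest homeostatic gene, with *S100a9* the highest at 181 and *Cd3e*, of T cells, at 4.82. With the length of all exons 6 of the 7 lay below it, the exception being *S100a9*. Of the 9 genes known to rise in disease-associated microglia, 5 lay below the lowest homeostatic gene per kilobase, a share not far from the 45.7% over all genes. *Itgax* was the lowest of the 9 at 22.3, and *Spp1*, which motor neurons also express, was the highest at 3729. Other genes enriched in microglia had a median of 120 per kilobase, and the lowest of them was *P2ry6*, another nucleotide receptor gene, at 63.8.

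Markers of the abundant cell types of the cord had higher levels. The median was 93620 per kilobase for oligodendrocyte markers, 9581 for astrocyte markers and 3640 for neuronal markers, of which *Chat*, a marker of motor neurons and other cholinergic neurons, was the lowest at 380. Markers of endothelium and pericytes had a median of 425, within a ratio of 1.06 of that of the homeostatic microglia genes. The medians of the 2 markers of oligodendrocyte precursors and of the 2 markers of fibroblasts were 259 and 359. By base mean, without a length, the order turned for endothelium and pericytes (719) and for oligodendrocyte precursors (1046), which lay above the 558 of the homeostatic genes.

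**Figure D4:**
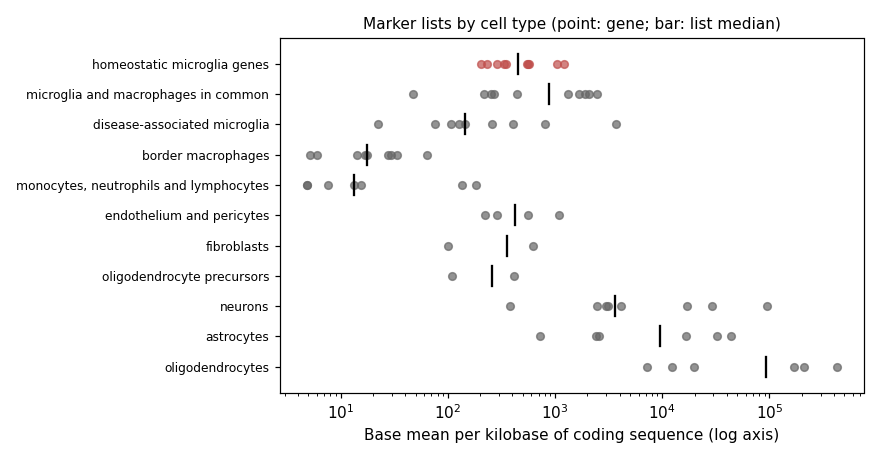
Base mean per kilobase of coding sequence (log axis, mean of all 10 libraries) of the homeostatic microglia genes (red) and of marker lists of other cell types (grey), with a point for each gene and a black bar at each list's median. The homeostatic genes lie between 201 and 1204, above all 9 border macrophage markers and below all 6 oligodendrocyte markers.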

How the data were processed

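RNA of 10 spinal cord samples, 5 of each genotype, was sequenced with a stranded mRNA kit. According to the methods, the authors filtered the reads with Fastp, aligned them to mm10 with HISAT2 (2.1.0 in the submitters' processing notes), assigned the uniquely mapped reads to genes by featureCounts (2.0.2) and compared the genotypes with DESeq2. The gene annotation and the strand setting are not given in the sources used here. The authors deposited 1 table. Its base mean, a signal that the authors computed as the mean over all libraries of counts divided by size factors, was used. The other 5 columns of the deposited table hold the authors' own comparison (log2 fold change, standard error, Wald statistic, p-value and adjusted p-value) and were not used. Values of single libraries were not analysed here, so the depth per library, an error for a level and a test between the genotypes are not given. Summed over all genes the base means give 22158933, which is the average total of a library after division by its size factor. Because size factors do not correct for gene length, levels between genes were divided by the longest coding sequence of GENCODE M21 (GRCm38, the build of mm10), where 96.3% of the symbols matched a single gene. Exon lengths, coordinates and overlaps are from the same annotation, and promoters are from RefSeq in GRCm38.p6. A percentile is the percentage of genes below a gene.

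All 10 genes are named. Of the lists of partners, relatives and cell type markers, the highest and lowest genes and the ligands were to be named, and others were added after their values were seen. Some genes of these lists count in the numbers and medians but are not reported here. The genes and lists were chosen with earlier results of these data known. The planned coding length from a protein table was replaced by GENCODE, and the planned comparison of protein sequences was not made. The alternatives were other sets of genes to rank against, a total without the most abundant genes, each gene left out, other lengths, another summary of a list and a shorter promoter window. Exon length for ratios and lists was an alternative chosen after seeing the data. The functions were checked on constructed data with known answers. Scripts ran in Python 3.11.15, with pandas 2.3.3 and numpy 2.4.6 for the tables, scipy 1.17.1 for the Wilson intervals against which alternative percentiles and shares were set and matplotlib 3.10.9 for the plots.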

Additional observations from a re-analysis of the deposited data

How the results depend on the processing

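The ranking depended on the genes ranked against. The median percentile of the 10 genes was 63.5 among genes above 0, 69.7 among all rows of the table, 51.9 among genes whose base mean reached 10 and 57.7 among genes with a coding length. The share of the 10 genes was 391 per 1000000 normalized counts, and 411 without the 10 most abundant genes. No symbol in the table starts with the prefix of mitochondrially encoded genes, so a total without them would be the same. The order was sensitive to length, since 4 of the 10 genes kept the place they had per kilobase of coding sequence when no length was used, and 2 kept it with the length of all exons. Leaving out each of the 10 genes moved their median base mean between 533 and 583. Of the 14 lists, 7 had a lower median base mean than the homeostatic genes, and 7 had a lower geometric mean of base mean + 1. In alternatives chosen after seeing the data, 9 were lower per kilobase of coding sequence and 10 per kilobase of all exons. With the length of all exons the ratio of *P2ry12* to *Kcnk13* turned to 1.04 and that of *Gpr34* to *P2ry1* to 1.14. With the 250 bases before the start site alone, GAGGAA was found for 2 genes in place of 3. Counted by promoter, it was in 2 of the 9 promoters of the 7 genes and in 23.3% of all promoters. No paired analysis was possible because the table holds no values of single libraries, and for the same reason no library could be left out.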
